A study of Bos taurus with 12 samples.

Results

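Reads of 9 genes for lipid- and xenobiotic-sensing nuclear receptors were followed in the liver of Holstein calves at 4 d of age: PPARA, PPARD, RXRA, RXRB, NR1H2, NR1H3, NR1I2, NR1I3 and RORA. The genes were listed by symbol, with no value in the rule although earlier results of these data were known, and matched to the Entrez gene IDs of the count files through the bovine RefSeq gene table. Of the 30336 gene IDs counted, 9 were these receptors, and 9 of 9 passed the filter on low counts that left 13212 genes to be tested. All calves were born to cows on the same basal close-up diet, fed alone (CON, 6 libraries) or with ethyl cellulose rumen-protected methionine for about 28 d before calving (MET, 6 libraries). The heifer calves drank first colostrum of their own dams and were otherwise fed and housed alike, so that effects before birth and through colostrum cannot be told apart. RNA came from liver biopsies, that is, from bulk tissue, in which fewer cells of a type and less RNA per cell cannot be told apart.

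Nuclear receptors of this kind are transcription factors that are switched by small lipophilic molecules. PPARA and PPARD bind fatty acids and their derivatives, the liver X receptors (LXR) NR1H3 and NR1H2 bind oxysterols, NR1I2 (PXR) and NR1I3 (CAR) respond to drugs, bile acids and steroids, and RORA is a constitutively active receptor linked to sterols and the circadian clock. Except for RORA, which binds DNA as a monomer, they act as heterodimers with a retinoid X receptor, here RXRA or RXRB. In the liver, PPARA is best known for switching on fatty acid oxidation and ketogenesis during fasting and suckling.

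The libraries held 8277789 to 10397604 counted reads, at which the floor of 3 reads equals 0.289 to 0.362 CPM (counts scaled to a common library total). Floors cover counting error only. The chi-square per gene was 1.311 between CON replicates 1 and 4 and 1.228 between MET replicates 1 and 3, near counting noise, whereas the other 64 pairs of libraries gave 23.25 to 122.2. MET replicate 5 stood apart, with a median of 102.1 against the other libraries, and MET replicate 4 to a lesser degree with 59.78, while pairs without them gave at most 50.45. Each pair was therefore counted as 1 sample, named below by its lower replicate number, which left 5 samples per diet. All CON libraries shared 1 first index and all MET libraries a different one, and this index cannot be told apart from the diet. Both near-identical pairs carried the same set of 2 second indexes. The labelled tissue was checked against hepatocyte markers: 8 of 8 were detected, and their summed level was 136135 to 183451 CPM in CON and 111076 to 144442 CPM in MET. Of these 8, ALB (log2 fold change −0.66) and APOB (−0.41) were lower in MET at an unadjusted p of at most 0.05 (edgeR, 8.5% of all genes tested). The summed level of 8 macrophage markers was 1133 to 1581 CPM in CON and 1333 to 1789 CPM in MET. All 8 were higher in MET by sign, CD68 (0.34) and C1QB (0.36) at the same threshold (7.86% of all genes tested). The part of these differences in the values of receptors and target genes below was not tested.

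Per length of transcript, the receptors spanned a wide range of levels. Given as reads per kilobase of exon, scaled as CPM (RPKM, mean ± SD over 10 samples), RXRA was at 59.7 ± 9.33, NR1I3 at 55.1 ± 17.4 and NR1H3 at 50.1 ± 9.44. These 3 levels lay above those of 90.8 to 92.3% of the genes tested. Their order was not the same in every sample, since RXRA was above NR1I3 in 6 of 10 samples and NR1I3 above NR1H3 in 6 of 10. A middle group followed, with NR1I2 at 15.0 ± 2.65 RPKM and NR1H2 at 11.2 to 16.5 RPKM, in this order in 7 of 10 samples. RXRB was at 9.29 ± 0.940 RPKM, below NR1H2 in 10 of 10 samples.

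The receptors of lowest level were PPARA at 5.90 ± 1.16 RPKM, PPARD at 4.78 ± 0.958 RPKM and RORA at 2.57 ± 0.928 RPKM. PPARA was above PPARD in 8 of 10 samples and PPARD above RORA in 9 of 10, so these neighbours also overlapped. RORA was above 32.7% of the genes tested. Ranges over the 10 samples did not overlap at 3 steps of the order, between NR1H3 and NR1I2, between NR1H2 and RXRB, and between RXRB and PPARA. RORA also rested on the fewest reads, 52 to 152 per library, against 2121 to 3835 for RXRA.

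**Figure D1:**
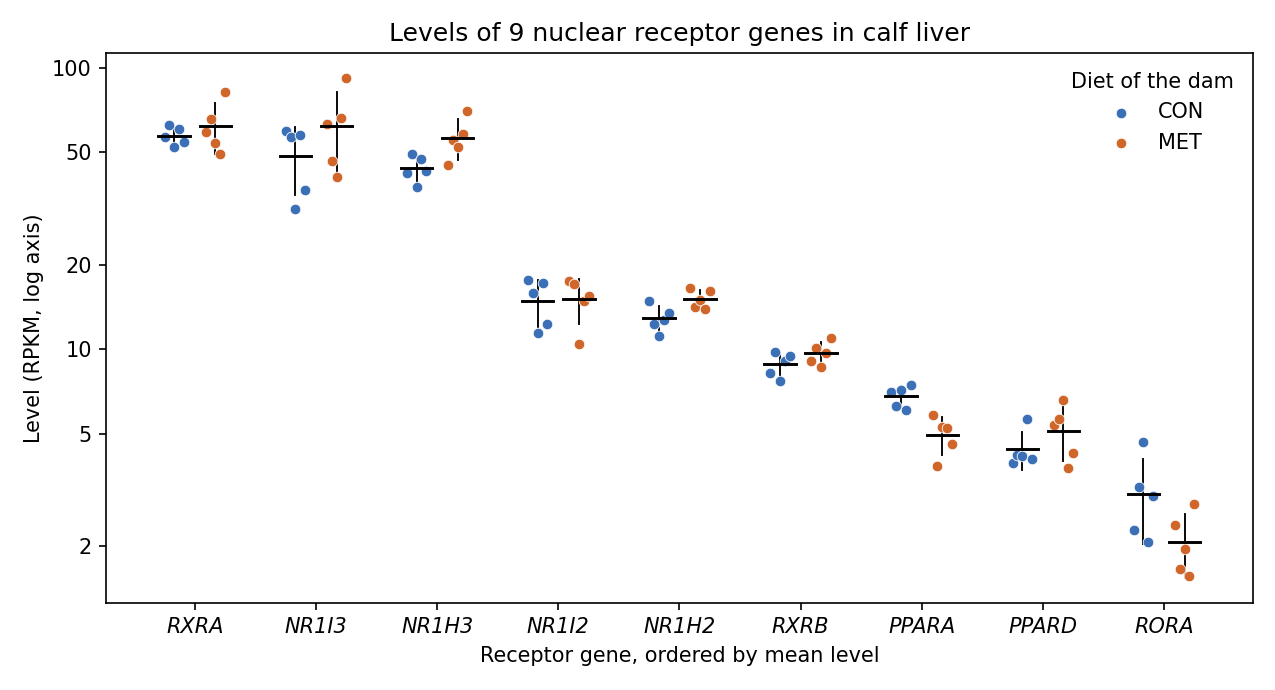
Level of each receptor in each of the 10 samples (points, CON and MET in different colours) in RPKM on a log axis, with the mean (horizontal line) and SD (vertical line) of the 5 samples of each diet. Receptors are ordered by their mean over all samples. RXRA, NR1I3 and NR1H3 form the top group at mean levels of 50.1 to 59.7 RPKM, and RORA lies lowest at 2.57 RPKM.

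The receptors also differed in how much they varied among samples of the same diet. This spread includes counting error, which is larger for RORA (52 to 152 reads per library) and PPARA (104 to 189) than for RXRA (2121 to 3835). The coefficient of variation within CON was lowest for RXRA (7.28%) and PPARA (8.75%) and highest for NR1I3 (27.3%) and RORA (33.5%), the latter with CON replicate 3 and 21.2% without it. Within MET it was lowest for NR1H2 (7.88%) and RXRB (9.32%), and highest for NR1I3 (32.2%), followed by RORA (25.4%) and PPARD (21.8%). For RXRA the coefficient of variation in MET was 20.6%, and 12.4% without MET replicate 6. A single sample also moved it by over 1.5 times for PPARA (15.3% in MET, 9.48% without MET replicate 2), NR1H3 (16.5% in MET, 10.5% without MET replicate 6), NR1I2 (18.5% in MET, 7.70% without MET replicate 4) and PPARD (15.6% in CON, 2.66% without CON replicate 5).

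In the comparison of the diets, none of the 9 receptors passed the threshold of 0.10 on the adjusted p over the 10 samples. In that comparison 0 of 13212 genes passed (0%, edgeR), with 2162 genes (16.4%) at an unadjusted p of at most 0.05. With DESeq2 624 genes passed (4.72%), and with edgeR over the 12 libraries as deposited 583 genes passed (4.41%). Each of these 2 counts held 1 receptor, PPARA, lower in MET. Over the 12 libraries, 2.32% of all genes passed with MET lower and 2.09% with MET higher. At an unadjusted p of at most 0.05 there were 3 of 9 receptors, of which PPARA and RORA were lower in MET (8.5% of all genes) and NR1H3 was higher (7.86% of all genes). Without CON replicate 3 only 1 receptor was at that threshold, lower in MET. By sign alone, 7 receptors had the higher mean in MET and 2 the lower. The median log2 fold change of the 9 was 0.13 (0.080 without MET replicate 6), against −0.0023 for all genes tested.

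**Figure D2:**
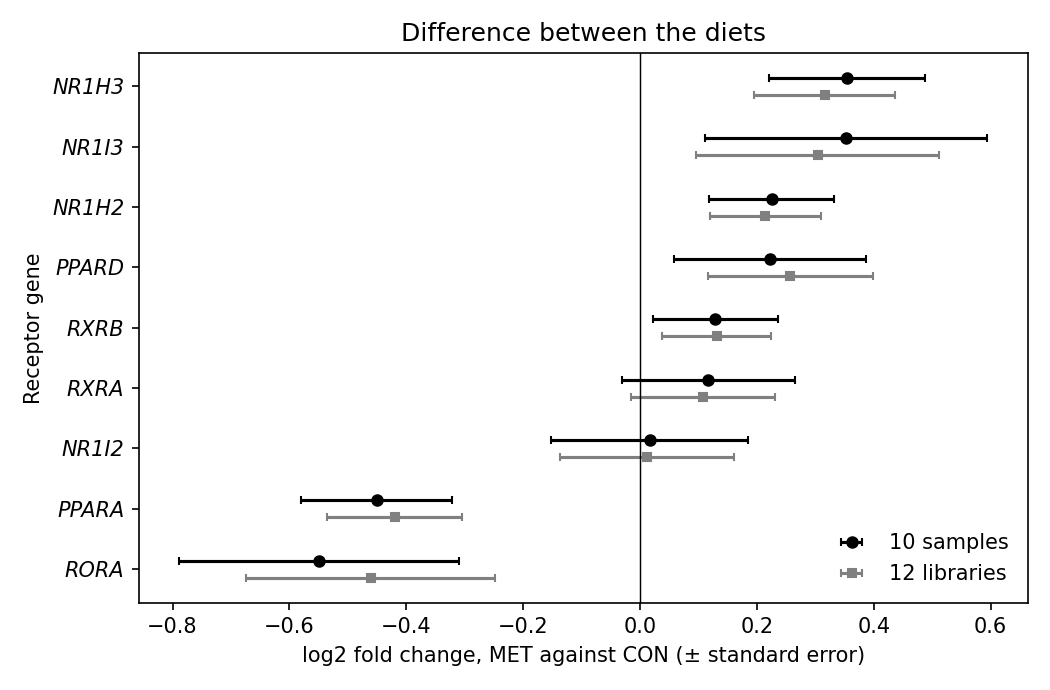
Log2 fold change of MET over CON for each receptor (point) with its standard error (bar), over the 10 samples and over the 12 libraries. PPARA (−0.45 over 10 samples) and RORA (−0.55) lie to the lower side and the other 7 receptors between 0.016 and 0.35.

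PPARA (gene ID 281992, chromosome 5, 117150450 to 117233112 on the plus strand of UMD 3.1.1) was the receptor with the lowest adjusted p. Its level was 18.6, 16.6, 18.8, 15.9 and 19.6 CPM in CON replicates 1, 2, 3, 5 and 6, and 15.3, 10.1, 13.9, 13.9 and 12.1 CPM in MET replicates 1, 2, 4, 5 and 6. On these TMM-scaled values all 5 MET samples lay below all 5 CON samples, the nearest being CON replicate 5 and MET replicate 1. Among all genes tested, the diets did not overlap on such values for 1.77% with MET lower and for 1.93% with MET higher. Of the 9 receptors PPARA alone was among these genes. Scaled by library total alone, the diets overlapped for PPARA, with MET replicate 1 at 6.13 RPKM and CON replicate 2 at 5.65 RPKM. The mean was 17.9 ± 1.57 CPM in CON and 13.1 ± 1.999 CPM in MET (SD, n = 5), and the log2 fold change was −0.45 ± 0.13 (SE, adjusted p = 0.178, edgeR). Over the 12 libraries it was −0.42 with an adjusted p of 0.0849, and DESeq2 over the 10 samples also put it under 0.10. Leaving out each sample in turn moved the log2 fold change between −0.52 and −0.37, with −0.47 without MET replicate 5, unadjusted p at most 0.05 in 10 of 10 fits and an adjusted p of at least 0.138 (edgeR). PPARA was counted from 104 to 189 reads per library, so its counting error is larger than that of RXRA or NR1H3.

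PPARD (gene ID 353106, chromosome 23, 9269515 to 9355440, plus strand), the widely expressed paralog of PPARA, lay in the same range of levels but not in the same direction. Its level was 12.7, 13.4, 13.4, 18.002 and 13.1 CPM in CON replicates 1, 2, 3, 5 and 6, and 17.3, 18.1, 21.0, 12.1 and 13.7 CPM in MET replicates 1, 2, 4, 5 and 6. The diets overlapped: CON replicate 5 stood above the other CON samples, MET replicates 2 and 4 were above all CON samples, and MET replicate 5 was below them. The log2 fold change was 0.22 ± 0.16 (SE, adjusted p = 0.529, edgeR), and it lay between 0.12 and 0.33 when each sample was left out in turn.

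RORA (gene ID 535597, chromosome 10, 48949517 to 49762212, plus strand) was the other receptor with a lower mean in MET. Its level was 8.49, 12.05, 17.3, 7.70 and 11.2 CPM in CON replicates 1, 2, 3, 5 and 6, and 8.80, 6.14, 7.24, 5.81 and 10.5 CPM in MET replicates 1, 2, 4, 5 and 6. CON replicate 3 was the highest of the 10 samples, MET replicates 2, 4 and 5 were below all CON samples, and the diets overlapped. The log2 fold change was −0.55 ± 0.24 (SE, adjusted p = 0.288, edgeR). It was −0.35 without CON replicate 3 and −0.47 without MET replicate 5, and an unadjusted p of at most 0.05 was kept in 4 of the 10 fits that left out a sample.

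Of the LXR genes, NR1H3 (LXR alpha, gene ID 507176, chromosome 15, 78323048 to 78330238, plus strand) is the form enriched in liver and NR1H2 (LXR beta, gene ID 509622, chromosome 18, 56998846 to 57005507, plus strand) the ubiquitous form. NR1H3 was at 73.8, 86.1, 65.9, 82.9 and 75.2 CPM in CON replicates 1, 2, 3, 5 and 6, and at 78.9, 96.5, 91.2, 101 and 123 CPM in MET replicates 1, 2, 4, 5 and 6. MET replicates 2, 4, 5 and 6 were above all CON samples and MET replicate 1 lay among them. The mean was 76.8 ± 7.99 CPM in CON and 98.2 ± 16.2 CPM in MET (SD, n = 5), and the log2 fold change was 0.35 ± 0.13 (SE, adjusted p = 0.237, edgeR). Without MET replicate 6 the log2 fold change was 0.26 and the unadjusted p above 0.05, and 8 of the 10 fits that left out a sample kept an unadjusted p of at most 0.05.

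NR1H2 was at 30.6, 25.5, 23.1, 26.2 and 27.9 CPM in CON replicates 1, 2, 3, 5 and 6, and at 34.2, 29.1, 30.8, 28.6 and 33.2 CPM in MET replicates 1, 2, 4, 5 and 6. Here 3 MET samples were above all CON samples, and only CON replicate 1 reached into the MET range. The log2 fold change was 0.22 ± 0.11 (SE, adjusted p = 0.317, edgeR). Over the 12 libraries its adjusted p was 0.222 (edgeR).

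**Figure D3:**
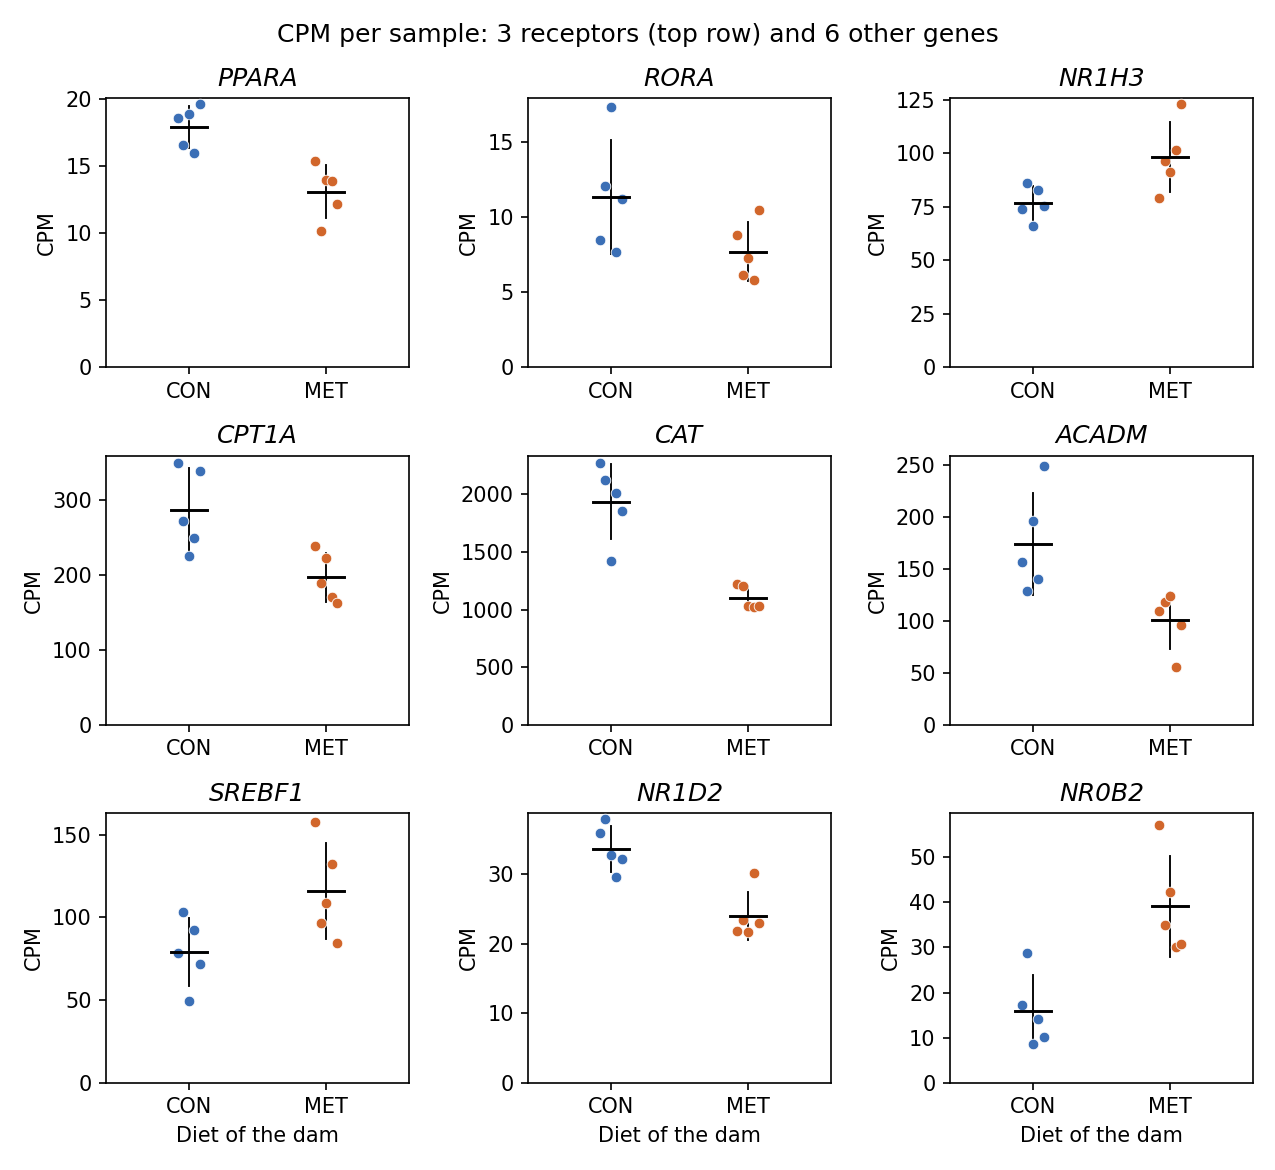
CPM in the 5 CON and 5 MET samples (points), with the mean (horizontal line) and SD (vertical line) of each diet, for the receptors PPARA, RORA and NR1H3 and for 6 genes around them (CPT1A, CAT, ACADM, SREBF1, NR1D2 and NR0B2). On these TMM-scaled values the diets do not overlap for PPARA, CAT, ACADM and NR0B2, and they overlap for the other genes drawn.

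Neither xenobiotic receptor passed the threshold, and the difference between them was not tested. NR1I3 (CAR, gene ID 493711, chromosome 3, 8290239 to 8295273, plus strand) was at 90.5, 86.0, 47.7, 87.4 and 56.0 CPM in CON replicates 1, 2, 3, 5 and 6, and at 95.8, 71.1, 62.3, 101 and 140 CPM in MET replicates 1, 2, 4, 5 and 6. CON replicates 3 and 6 were low, MET replicate 6 was the highest sample, and the diets overlapped broadly. The log2 fold change was 0.35 ± 0.24 (SE, adjusted p = 0.491, edgeR) and 0.16 without MET replicate 6. The exons of NR1I3 share 265 bases with those of TOMM40L on the opposite strand, and the counting was stranded. The other 8 receptors share no exonic base with another gene.

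NR1I2 (PXR, gene ID 493713, chromosome 1, 65205428 to 65240731, plus strand) had nearly the same mean in both diets, 75.2 ± 14.3 CPM in CON and 76.1 ± 14.1 CPM in MET (SD, n = 5). It was at 88.9, 80.2, 57.8, 86.8 and 62.4 CPM in CON replicates 1, 2, 3, 5 and 6, and at 88.2, 86.1, 52.9, 74.8 and 78.4 CPM in MET replicates 1, 2, 4, 5 and 6. The lowest samples were MET replicate 4 and CON replicates 3 and 6, and the ranges of the diets nearly coincided. The log2 fold change was 0.016 ± 0.17 (SE, adjusted p = 0.974, edgeR), and it changed sign with the sample left out, between −0.065 and 0.12.

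Of the heterodimer partners, RXRA (gene ID 507554, chromosome 11, 105965528 to 106018175, plus strand) is the main retinoid X receptor of liver. It was at 272, 300, 251, 290 and 262 CPM in CON replicates 1, 2, 3, 5 and 6, and at 284, 316, 259, 237 and 395 CPM in MET replicates 1, 2, 4, 5 and 6. MET replicate 6 was the highest and MET replicate 5 the lowest of the 10 samples. The log2 fold change was 0.12 ± 0.15 (SE, adjusted p = 0.732, edgeR), and −0.0070 without MET replicate 6. MET replicate 6 was thus the highest sample for RXRA, NR1H3 and NR1I3 alike, and for RXRB as well.

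RXRB (gene ID 504943, chromosome 23, 7320214 to 7326949, minus strand) was at 23.4, 27.7, 21.9, 25.8 and 26.9 CPM in CON replicates 1, 2, 3, 5 and 6, and at 25.8, 28.7, 24.5, 27.5 and 31.1 CPM in MET replicates 1, 2, 4, 5 and 6. The diets overlapped, with MET replicates 2 and 6 above all CON samples. Its log2 fold change was 0.13 ± 0.11 (SE, adjusted p = 0.579, edgeR), and 0.080 without MET replicate 6. RXRG, the third gene of this family, was under the filter, with 0.518 to 4.06 CPM in CON and 0 to 4.09 CPM in MET.

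Ratios of RPKM within each sample set the receptors beside their paralogs and partners. These are descriptions with no test. PPARA over PPARD was 1.58 ± 0.308 in CON and 1.01 ± 0.279 in MET (SD, n = 5): PPARA was the higher of the pair in all 5 CON samples, at 1.78, 1.501, 1.72, 1.08 and 1.83, and the MET samples were at 1.08, 0.680, 0.805, 1.40 and 1.08. The ratio of PPARA to RXRA was 0.120 ± 0.0183 in CON and 0.0837 ± 0.0243 in MET, and 4 MET samples were below all CON samples. RXRA over RXRB was nearly the same in both diets, 6.48 ± 0.446 in CON and 6.37 ± 0.859 in MET.

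NR1H3 over NR1H2 was 3.43 ± 0.451 in CON and 3.74 ± 0.654 in MET (SD, n = 5), with broad overlap, as both genes had higher means in MET. NR1I3 over NR1I2 was 3.21 ± 0.332 in CON and 4.14 ± 1.18 in MET. For this ratio 4 of 5 MET samples were above all CON samples, at 3.62, 3.92, 4.49 and 5.93, and MET replicate 2 was at 2.75. In CON the ratio of NR1I3 to NR1I2 was lowest, at 2.75 and 2.99, in CON replicates 3 and 6, in which both genes were low, and 3.35 to 3.57 in the other 3 samples. The diets overlapped in each of the 5 ratios.

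**Figure D4:**
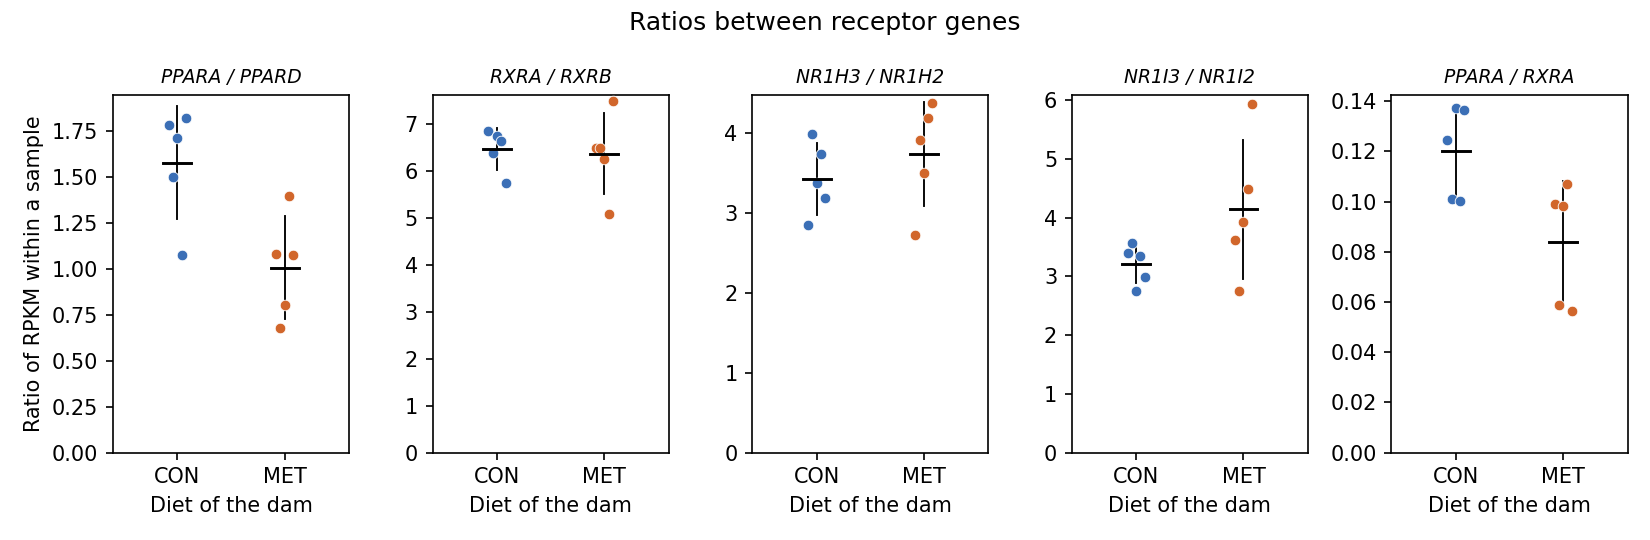
Ratio of RPKM between receptors in each sample, for 5 pairs, with points for samples, a horizontal line for the mean and a vertical line for the SD of each diet. PPARA/PPARD has a mean of 1.58 in CON and 1.01 in MET, and RXRA/RXRB one of 6.48 in CON and 6.37 in MET.

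Genes around the receptors were read from lists of ligand supply, targets, coregulators and other nuclear receptors. In the fit of the 10 samples none of their genes had an adjusted p of 0.10 or less (edgeR), and the counts that follow are at an unadjusted p of at most 0.05. Of 27 PPARA target genes tested, 8 were lower in MET (8.5% of all genes tested) and 0 higher, and the median log2 fold change of the list was −0.26. Without MET replicate 5, the lowest sample for ACADM, EHHADH, CYP4A11, PDK4 and CAT, 7 were lower and the median was −0.080. With CON replicate 2 left out 8 were lower and 2 higher, and with CON replicate 1 left out 6 were lower and 0 higher. The hepatocyte markers were lower alongside, 7 of 8 by sign with a median log2 fold change of −0.29. Among the 8 PPARA targets lower in MET were CPT1A, which brings long-chain fatty acids into mitochondria, and ACADM and EHHADH of beta-oxidation. CAT, which breaks down hydrogen peroxide, CYP4A11, PDK4 and TXNIP were further targets of these 8. CAT was between 1418 and 2271 CPM in CON and between 1018 and 1226 CPM in MET (log2 fold change −0.81 ± 0.16 SE, adjusted p = 0.155, edgeR). ACADM had a log2 fold change of −0.79 ± 0.23, and CAT and ACADM were the 2 PPARA targets whose diets did not overlap (3.7% of all genes tested). Over the 12 libraries 4 PPARA targets passed 0.10, all lower in MET (2.32% of all genes), among them CAT, ACADM and CPT1A. ANGPTL4, a lipoprotein lipase inhibitor, had a log2 fold change that was 0.39 and changed sign with the sample left out. FGF21 was under the filter.

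Of 17 LXR targets tested, 1 was higher (2 without MET replicate 2) and 0 were lower. Such a count is near the share of all genes (7.86% higher, 8.5% lower). The median log2 fold change was −0.088, and it changed sign with the sample left out (0.022 without CON replicate 2). The 1 gene was SREBF1, the lipogenic transcription factor, at 78.5, 103, 49.6, 92.1 and 71.7 CPM in CON and 158, 96.8, 109, 132 and 84.4 CPM in MET in the same order of replicates (log2 fold change 0.55 ± 0.21 SE, adjusted p = 0.242, edgeR). SREBF1 was no longer at that threshold without CON replicate 3, MET replicate 1 or MET replicate 5. The cholesterol exporter ABCA1, at a log2 fold change of 0.029, rested on a high sample in each diet, CON replicate 3 at 184 CPM against 62.5 to 90.2 CPM in the other CON samples and MET replicate 4 at 212 CPM against 36.2 to 113 CPM in the other MET samples. It was 0.40 without the first and −0.46 without the second.

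Among 21 targets of PXR and CAR tested, 6 were lower (8.5% of all genes) and 0 higher (7.86%) in MET, with a median log2 fold change of −0.31, while the receptors themselves had log2 fold changes of 0.016 and 0.35. Of these targets 3 were lower without MET replicate 1. The 6 were the drug-metabolising enzymes CYP2C89, CYP2C90, CYP2A13 and UGT1A6, ALAS1 of heme synthesis and the hepatic uptake transporter SLCO1B3. CYP2C89 was at 207 to 487 CPM in CON and 60.6 to 184 CPM in MET (log2 fold change −1.18 ± 0.34 SE, adjusted p = 0.178, edgeR). Reads of such near-identical family members can be lost where they match several genes, so these values are uncertain.

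Of 13 RORA targets, 3 were lower (8.5% of all genes) and 0 higher (7.86%) in MET. The median log2 fold change was −0.16, and it was −0.087 without MET replicate 1 and −0.27 without MET replicate 5. The 3 genes were the clock repressor NR1D2 (−0.49), the triglyceride-linked apolipoprotein gene APOA5 (−0.55) and LPIN1 (−1.73), a phosphatidate phosphatase that also acts as a coactivator. NR1D2 was at 29.6 to 37.9 CPM in CON and 21.7 to 30.2 CPM in MET. The clock gene ARNTL had a log2 fold change of 0.39, and 0.17 without MET replicate 4, while the sign of NR1D1 depended on the setting.

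**Figure D5:**
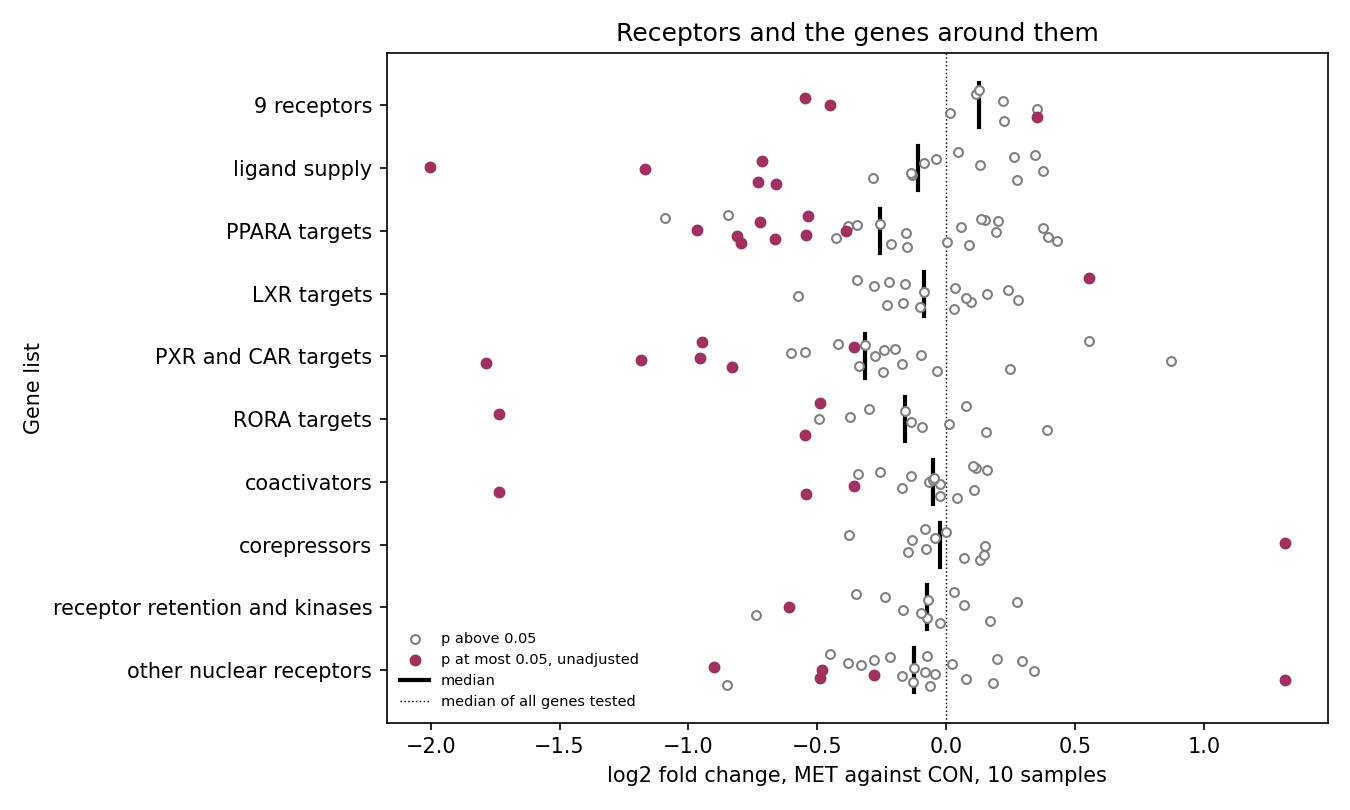
Log2 fold change of MET over CON of each gene tested (points) in the receptor group and in the lists of genes around it, with filled points for genes at an unadjusted p of at most 0.05 a bar for each list's median and a dotted line for the median of all genes tested. The PPARA targets have a median of −0.26 and the PXR and CAR targets one of −0.31.

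In the supply of ligands, 5 of 16 genes were lower in MET (8.5% of all genes) and 0 higher (7.86%). The lower count fell to 3 without CON replicate 3 or without MET replicate 5. With CON replicate 1, CON replicate 2 or MET replicate 1 left out, 1 gene was higher. The median log2 fold change was −0.11, and it was −0.056 without CON replicate 5 and −0.17 without MET replicate 4. Lower genes were the fatty acid desaturases FADS1 (−1.17) and FADS2 (−2.0) and the cholesterol transporter NPC1 (−0.71). The retinal dehydrogenases ALDH1A1 (−0.66) and ALDH1A2 (−0.73), which make retinoic acid, were also lower. CON replicate 2 was the highest sample for both desaturases, at 116 CPM for FADS1 against 18.7 to 49.0 CPM in the other CON samples, and without it the log2 fold changes were −0.49 for FADS1 and −1.35 for FADS2. Of 17 coactivators 3 were lower (8.5% of all genes), NCOA2 (−0.36), KAT2B (−0.54) and LPIN1, and 0 higher (7.86%). KAT2B, a histone acetyltransferase, was at 70.7 to 95.6 CPM in CON and 47.1 to 64.2 CPM in MET (adjusted p = 0.173, edgeR).

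Of 12 corepressors 1 was higher, NR0B2 (SHP), an orphan receptor without a DNA-binding domain that blocks other nuclear receptors, and 0 were lower, a count near the share of all genes (7.86% higher, 8.5% lower). NR0B2 was at 17.2, 28.9, 8.67, 14.05 and 10.2 CPM in CON and 57.3, 35.1, 42.3, 30.2 and 30.8 CPM in MET, so that the diets did not overlap (log2 fold change 1.31 ± 0.30 SE, adjusted p = 0.173, edgeR, and 0.0452 over the 12 libraries). Of 13 genes for cytoplasmic retention and kinases that act on the receptors, 1 was lower and 0 were higher, again near these shares, but 4 were lower without MET replicate 4. Of 24 other nuclear receptors tested, NR0B2 was higher (7.86% of all genes) and 4 were lower (8.5%), NR1D2, NR2C2 (−0.28), the glucocorticoid receptor NR3C1 (−0.48) and NR4A1 (−0.90). NR4A1 was near the floor, at 1.14 to 2.51 CPM in CON and 0.559 to 1.26 CPM in MET, with at most 20 reads in a library. HNF4A, the master regulator of hepatocyte genes, had a log2 fold change of −0.13, between −0.20 and −0.023 when each sample was left out in turn (nearest to 0 without CON replicate 6).

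For each receptor, the genes whose log2 CPM, centred and scaled, ran closest to it over the 10 samples were taken by the root mean square difference. They were HP1BP3 (0.303) for PPARA, HEMK1 (0.366) for PPARD, HSD17B8 (0.156) for RXRA, POMC (0.291) for RXRB, SH3BP1 (0.319) for NR1H2, JTB (0.243) for NR1H3, ATRAID (0.335) for NR1I2, RARRES2 (0.268) for NR1I3 and VPS41 (0.387) for RORA. These values are a description over 10 samples chosen from all genes tested, and none of the 9 nearest genes was another of the receptors.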

How the data were processed

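The 12 liver RNA libraries, which the labels give as separate samples, were sequenced on 1 lane, with diet and replicate number taken from the labels. The authors trimmed the reads with Trimmomatic (named in the labels), checked them with FastQC 0.11.15, mapped them with STAR 2.5.3a to the cattle genome UMD 3.1.1 and assigned them to genes with featureCounts of Subread 1.5.2, stranded and without multi-mapping or ambiguous reads. They deposited raw counts of reads per Entrez gene ID, with exons and exonic length. The members and gene lists were chosen with earlier results of these data known. Symbols came from the bovine RefSeq table, and 90.8 to 100% of each sequence's genes lie on the chromosome named here in the later assembly of that table.

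Genes were kept by edgeR's filter (minimum count 10, minimum total 15), which left 13212 of 21227 genes with a read. Diets were compared with the quasi-likelihood test of edgeR 4.0.16 in R 4.3.3, with TMM normalization and diet alone, over 10 samples: the reads of 2 pairs of near-identical libraries (chi-square per gene under 2) were summed. P-values were adjusted by Benjamini-Hochberg over all genes tested, with a threshold of 0.10, and at 0.05 also 0 genes passed. The standard error is the absolute log2 fold change divided by the square root of F. CPM and RPKM use TMM-scaled library sizes, and the values of a pair were averaged. On simulated counts with 13212 genes and 10 samples, 64 of 100 genes changed 2-fold and 12 of 100 changed 1.5-fold were called, with 10 of 13012 unchanged genes.

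Alternatives were the 12 libraries, these with the replicate number as a block, DESeq2 1.42.0, limma 3.58.1 (voom), other scalings and filters, removal of a trend of fold change with gene length, and leaving out each sample. Leaving out samples for the list counts and for the spread within a diet was added after seeing the data. Besides the receptors, the text names the 3 genes of lowest unadjusted p of each list and a fixed set of well-known members. The other genes at an unadjusted p of at most 0.05 were named after their values were seen. Some genes that this rule names are not reported here.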

Additional observations from a re-analysis of the deposited data

Results flagged for a closer look

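Within each diet, 110 groups of 5 values (CPM of the named genes and ratios between receptors) were checked for a sample far from the other 4, by the gap to its nearest neighbour over the range of the group (critical value 0.71). Chance sets apart about 1 in 20 groups, and 10 were set apart here, of which 1 was among the 18 groups of receptor values. That was PPARD in CON replicate 5, at 18.002 CPM against 12.7 to 13.4 CPM in the other CON samples, and without it the log2 fold change of PPARD was 0.33.

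The others were genes around the receptors. ANGPTL4 had a high sample in each diet, CON replicate 5 at 49.5 CPM (others 14.04 to 21.9) and MET replicate 4 at 102 CPM (others 10.95 to 24.1). In CON replicate 3, ABCA1 was at 184 CPM (others 62.5 to 90.2) and the coactivator MED1 at 39.9 CPM (others 31.7 to 32.9), and RORA was also highest there. In CON replicate 2, FADS2 was at 218 CPM (others 41.1 to 73.6) and ARNTL low at 7.03 CPM (others 11.1 to 12.3). In MET replicate 5, CYP2B6 was at 25.4 CPM (others 0 to 7.30) and NR1D2 at 30.2 CPM (others 21.7 to 23.4). NR3C1 was low in MET replicate 4, at 25.3 CPM (others 33.8 to 35.4).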

How the results depend on the processing

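Of the receptor fold changes under alternatives that kept all samples, 79 kept direction and side of the threshold and 2 passed it, those of PPARA over the 12 libraries (−0.42) and with DESeq2 (−0.45). Thus 1 receptor was called in place of 0 over the 12 libraries and 1 with DESeq2. Other pathway genes called were 13 over the 12 libraries, 2 with the replicate block and 13 with DESeq2, against 0, and all genes called were 583, 6 and 624, against 0. With the replicate block PPARA was at −0.43 with an adjusted p of 0.167 (edgeR). Replicate numbers did not pair the samples: deviations of same-numbered libraries correlated between −0.19 and 0.148, and for 0 of 6 numbers was the best match its own number. Among the genes named by rule, the signs that turned were those of ABCA1 (−0.066 with the block, −0.018 scaled by library size only, −0.12 with voom), ANGPTL4 (−0.20 with the block, −0.066 with voom), CYP2B6 (−0.12 with the block, −0.60 with voom), NR1D1 (−0.12 over 12 libraries, −0.043 with the block) and NCOR1 (0.055 with the length trend removed). The cause was not tested.

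When each sample was left out, 85 of the receptor fold changes kept direction and call and 5 turned, those of NR1I2 (range −0.065 to 0.12) and RXRA (−0.0070 to 0.19). The number of receptors with unadjusted p at most 0.05 was 1 to 4 (1 without CON replicate 3). Among the other genes named by rule, the ranges that crossed 0 were ABCA1 −0.46 to 0.40, ABCB1 −0.54 to 0.0099, ABCG5 −0.29 to 0.051, ANGPTL4 −0.66 to 0.80, CYP2B6 −0.63 to 1.28, MYLIP −0.038 to 0.11 and NR1D1 −0.13 to 0.33. Levels and ratios were not recomputed without a sample. Mean ratios over the 12 libraries and mean levels with RPKM on library size only moved by less than their SD. With RPKM on library size only, however, the diets overlapped for PPARA, and so did the ranges of NR1H2 and RXRB. At this number of samples, 12 of 100 genes changed 1.5-fold in simulated counts were called.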

Other observations

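Markers of other liver cells were detected beside those of hepatocytes. Summed levels were 61.7 to 102 CPM in CON and 41.0 to 82.3 CPM in MET for cholangiocyte markers, 633 to 971 and 472 to 842 CPM for stellate cells and fibroblasts, 360 to 568 and 323 to 556 CPM for endothelium, and 27.9 to 55.2 and 47.8 to 57.5 CPM for lymphocytes. Erythroid markers ranged most, from 8.80 to 1083 CPM in CON and from 65.6 to 590 CPM in MET. Skeletal muscle markers were at 0.114 to 0.337 and 0.112 to 0.682 CPM, with 0 of 7 passing the filter.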
